A study of Caenorhabditis elegans with 6 samples.

Results

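The numbered col genes encode collagens of the cuticle of Caenorhabditis elegans, and 73 of the 5739 genes in the deposited table belonged to them. They were chosen by identifier, as every row from WBGene00000596 to WBGene00000749, without use of any measured value. The annotation of the WBcel235 assembly holds 146 genes with an identifier in this range, so that the other 73 were not among the genes listed. Of the 73 listed col genes, 61 had a value above 0 in at least 1 of the 2 groups of worms and 12 were at 0 in both.

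Cuticle collagens are small proteins with repeats of glycine followed by any pair of residues, in which many prolines are hydroxylated before the chains fold into a triple helix. The hypodermis, the epidermal layer under the cuticle, makes them in bursts before each moult, secretes them, and a new cuticle is then built from the cleaved and cross-linked chains. Different col genes are used at different larval stages and in the adult, and several lie beside near-identical copies.

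Polysome immunoprecipitation recovers RNA through a tagged ribosomal protein, here to ask which transcripts the ribosomes of neurons hold when ALG-2, an Argonaute protein that carries miRNAs, is missing. Both groups were L4 larvae with a single-copy insertion that expresses a tagged RPL-18 (and, after an SL2 splice leader, HIS-58 fused to GFP) from rgef-1p, a promoter active throughout the nervous system. One group of 3 libraries was wild type at alg-2 and the other 3 libraries carried alg-2(ok304), a deletion allele. Immunoprecipitation was from lysates of whole animals, which contain hypodermis and muscle as well as neurons.

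The labels of the second group have limits. In the strain list RPL-18 carries FLAG in the wild-type background but HA in the mutant background, while the methods describe only FLAG and beads against FLAG. The column headers name a knockout of alg-1 for the libraries that GEO's labels call alg-2(ok304), and the labels are followed here. alg-2 itself had 4.24, 5.92 and 6.43 fitted reads in the libraries from wild type, against 2.51, 2.95 and 5.65 in those labelled alg-2(ok304). Reads outside the deleted stretch also count, so these values do not check the labels.

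The value of each library was not a read count. In wild type, library 2 was 1.40 times and library 3 was 1.52 times library 1 in every gene above 0, with 1.17 and 2.24 for the mutant libraries. No such ratio varied over genes by more than 1.6e-09 of its value. A column is thus the fitted level of its group times a factor of the library, called fitted reads here. The columns hold no spread between replicates, so no error, interval or test could be computed, and every comparison of the groups below is a description. Sums over 3 libraries are given unless the libraries are given one by one, and wild type comes first where a pair of values is given.

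The groups also differed in what the libraries held. The share of ribosomal RNA genes in all fitted reads was 97.9% in wild type, against 85.1% in alg-2(ok304). Outside these genes and the 23 listed genes overlapping them or within 2000 bp, 108700 to 164986 fitted reads were left in a wild-type library and 608184 to 1365320 in an alg-2(ok304) library. Of those, 68 genes with over 1000 fitted reads in a group held 85.2% in wild type, against 93.1% in alg-2(ok304). The log2 ratio (fitted reads of alg-2(ok304) divided by those of wild type) at which a gene would count as unchanged therefore depended on the scale. It was 2.66 by the totals outside ribosomal RNA and the genes beside it, -1.11 by the totals of all genes, 1.72 outside the annotated ribosomal RNA genes only, 1.57 by the genes with at most 1000 fitted reads, and 1.93 by the median of the 2659 genes above 0 in both groups. A direction is given for a col gene only where it held on all 5 scales. Elsewhere the fitted reads themselves are given.

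Most col genes were read in both groups, and a larger number in alg-2(ok304) than in wild type. Of the 61 col genes above 0, 37 were above 0 in both groups (60.7%), against 55.6% of the 4786 genes above 0. A further 21 were listed in alg-2(ok304) only (34.4%, against 38.3% of all genes), and 3 in wild type only (4.92%, against 6.16%). The col genes thus fell into these classes in shares near those of the whole table. In such pooled lysates, fewer cells of a type and less RNA per cell cannot be told apart.

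**Figure D1:**
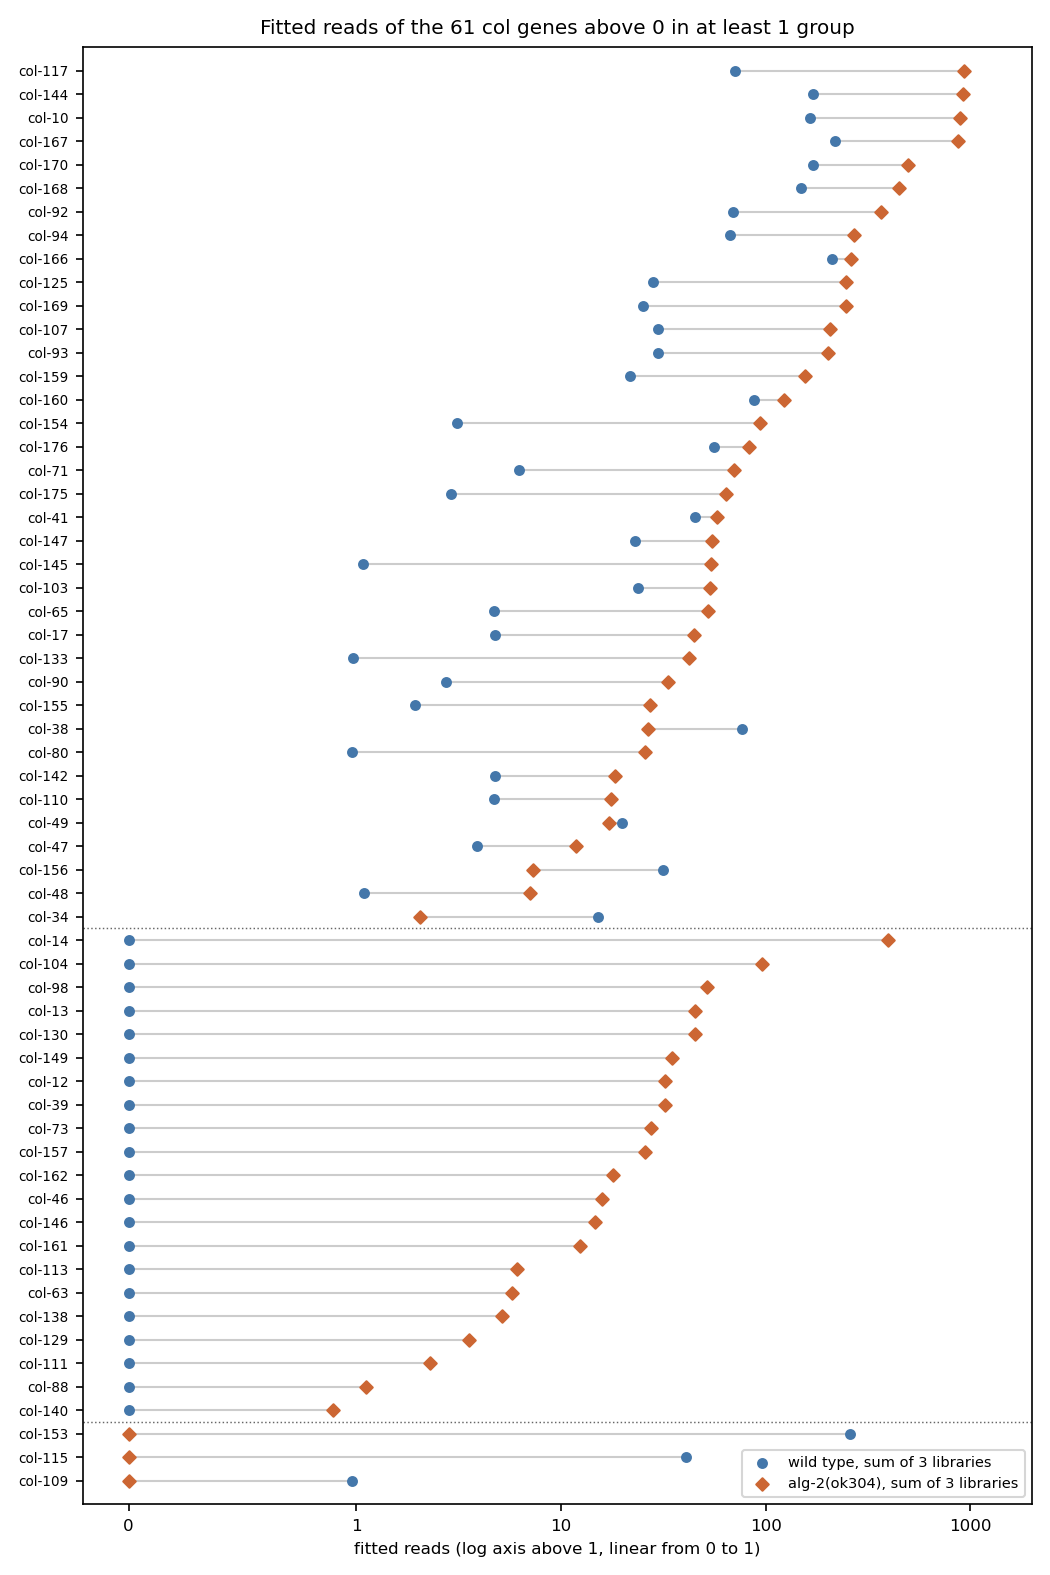
Fitted reads (horizontal axis, logarithmic above 1 and linear from 0 to 1) of the 61 col genes above 0, with wild type as blue circles and alg-2(ok304) as orange diamonds, each the sum of 3 libraries. The dotted lines part the 37 genes above 0 in both groups from the 21 listed in alg-2(ok304) only and the 3 listed in wild type only; in the upper class the orange point lies left of the blue one only for col-38, col-49, col-156 and col-34.

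The level of the family was set by few of its members. The fitted reads of all col genes were 549, 767 and 833 in the wild-type libraries, against 1894, 2223 and 4252 in the alg-2(ok304) libraries. As a share of the reads outside ribosomal RNA and the genes beside it, this was 0.505% in wild type, against 0.311% in alg-2(ok304). As a share of the reads outside the ribosomal RNA genes only, it was 0.225% and 0.266%, and within the genes with at most 1000 fitted reads it was 3.37% and 4.43%. The order of the groups therefore turned with the denominator. The 8 genes highest by fitted reads held 66.5% of the col reads in wild type, against 63.5% in alg-2(ok304), and in each group 6 genes sufficed for 50% of them.

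Per kb of coding length, which allows genes to be compared, the highest col genes in wild type were col-153 with 255 fitted reads per kb, col-167 with 241, col-166 with 234, col-144 with 194, col-170 with 190, col-10 with 186, col-168 with 165 and col-160 with 91.9. In alg-2(ok304) they were col-144 with 1041 fitted reads per kb, col-117 with 1040, col-10 with 1004, col-167 with 965, col-170 with 549, col-168 with 496, col-92 with 400 and col-14 with 384. The 5 genes on both lists were col-144, col-10, col-167, col-168 and col-170. They lie in 2 stretches of neighbouring genes, on chromosomes V and X. With no spread between replicates, it cannot be said which neighbours in these orders differ.

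Some genes on only 1 of these lists were listed at 0 in the other group. col-153 (WBGene00000726; chromosome V, 10949811 to 10951821) had 65.8, 91.9 and 99.9 fitted reads in the libraries from wild type and was listed at 0 in all 3 alg-2(ok304) libraries. col-14 (WBGene00000603; chromosome IV, 7753408 to 7754656) had the opposite pattern, at 0 in wild type and at 89.98, 106 and 202 fitted reads in alg-2(ok304). These were the highest col gene of wild type and the seventh col gene of alg-2(ok304) by fitted reads, but col-14 lies in an intron of C46A5.4, whose reads followed the same pattern and cannot be told apart from it.

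col-117 (WBGene00000691; chromosome IV, 8822962 to 8824195) had 18.1, 25.3 and 27.5 fitted reads in wild type, against 211, 248 and 474 in alg-2(ok304). Its log2 ratio of fitted reads was 3.72, above no change on every scale, and it was the highest col gene of alg-2(ok304) by fitted reads, with 11.1% of the family. By contrast, col-166 (WBGene00000739; chromosome X, 6280016 to 6280921) had 54.1, 75.5 and 82.1 fitted reads in wild type, against 59.3, 69.6 and 133 in alg-2(ok304). Its log2 ratio was 0.31, higher by the totals of all genes and lower on the other scales.

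Among the 37 col genes above 0 in both groups, the log2 ratio of fitted reads ran from -2.89 to 5.66, with a median of 2.43 and quartiles of 1.26 and 3.48. Over all 2659 such genes the median was 1.93, with quartiles of 0.50 and 3.12. The median of the col genes thus lay 0.50 above that of all genes, a difference that no choice of scale alters and for which no error could be computed. A ratio above the median of all genes was found in 23 col genes, 37.7% of the 61 above 0, against 27.8% of all genes above 0. Of the genes above 0 in both groups, 21 col genes had at least 20 fitted reads in wild type. Their median log2 ratio was 2.002, against 0.77 for all 722 such genes, a difference of 1.23. Of these 21 col genes, 15 lay above 0.77, the median that by definition divides the 722 genes evenly. Genes at 0 in alg-2(ok304) have no ratio and were left out of both medians. With at least 20 fitted reads in wild type, the col genes so left out were col-153 at 258 and col-115 at 40.7. Both went the other way, so 15 of 21 does not describe every col gene at that level.

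**Figure D2:**
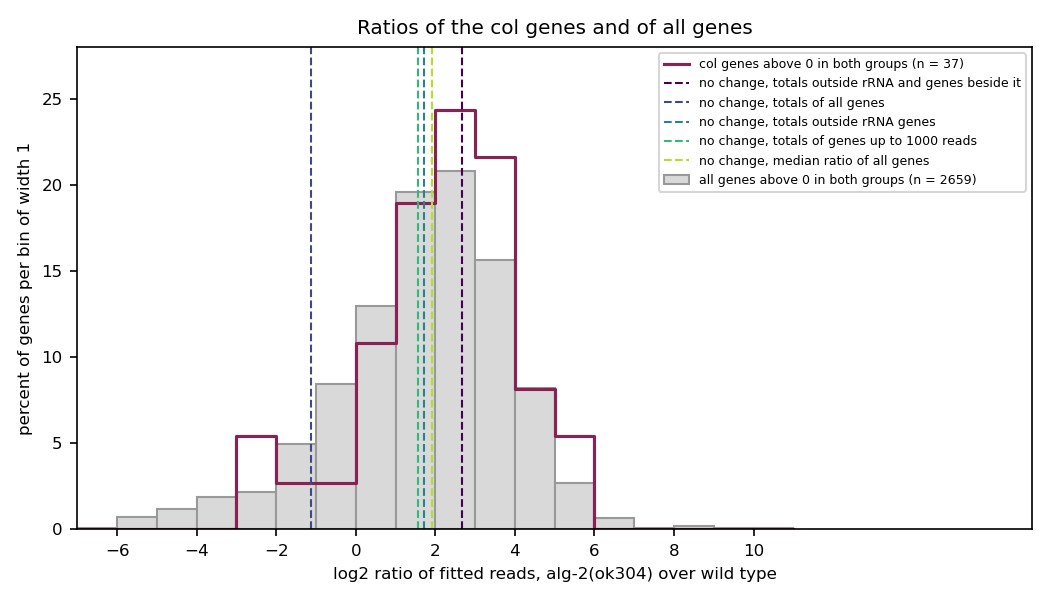
Percent of genes (vertical axis) by log2 ratio between the groups (horizontal axis, fitted reads of alg-2(ok304) divided by those of wild type, bins of width 1), for the 37 col genes above 0 in both groups (line) and all 2659 such genes (grey bars). The dashed lines mark no change on the 5 scales, from -1.11 to 2.66; the bulk of both sets lies between and just above them, with medians of 2.43 and 1.93.

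On every scale, 17 col genes were higher in alg-2(ok304) (27.9% of the 61, against 18.8% of all genes above 0), 3 were lower (4.92%, against 5.64%), and for 17 the direction depended on the scale (27.9%, against 31.1%). When the genes listed in 1 group are counted too, with a pseudocount of 0.5, the totals outside ribosomal RNA and the genes beside it gave 38 col genes higher and 23 lower. The split was 55 to 6 by the totals of all genes, 45 to 16 outside the annotated ribosomal RNA genes only, 47 to 14 by the genes with at most 1000 fitted reads and 44 to 17 by the median of all genes. The 21 col genes listed in alg-2(ok304) only all count as higher here, a class of 34.4% of the col genes and 38.3% of all genes. No such split was made over all genes, so these counts are not read as a trait of the col genes.

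The highest ratios belonged to genes with few reads in wild type. col-145 (chromosome V) had 0.276, 0.385 and 0.418 fitted reads in wild type, against 12.3, 14.4 and 27.6 in alg-2(ok304), a log2 ratio of 5.66. col-133 (chromosome IV) had 0.252, 0.352 and 0.382 against 9.62, 11.3 and 21.6 fitted reads, a log2 ratio of 5.43. In both, the wild-type level summed to about 1 fitted read, so that these ratios rest on almost no wild-type signal.

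col-154 (chromosome V) had 3.10 fitted reads in wild type, against 93.5 in alg-2(ok304), a log2 ratio of 4.91, and its neighbour col-155 had 1.95 and 27.4, a log2 ratio of 3.81. col-80 (chromosome II) had 0.982 and 25.7, a log2 ratio of 4.71, and col-175 (chromosome X) had 2.904 and 63.7, a log2 ratio of 4.46. col-90 (chromosome III) had 2.74 and 33.2, a log2 ratio of 3.599. All of these were below 4 fitted reads in wild type, unlike col-117. The other 9 genes higher on every scale, col-48, col-93, col-107, col-159, col-125, col-17, col-169, col-65 and col-71, had log2 ratios from 2.702 to 3.48. Among the genes higher on every scale, col-48, col-80, col-93 and col-107 lie in introns of listed genes on the other strand. Their reads are not certain to be those of the col gene, and the share higher on every scale was not recomputed without them.

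The 3 col genes lower in alg-2(ok304) on every scale had moderate levels in wild type. col-38 (WBGene00000615; chromosome II, 8568035 to 8569088) had 19.5, 27.2 and 29.6 fitted reads in wild type, against 6.02, 7.07 and 13.5 in alg-2(ok304), a log2 ratio of -1.52. col-156 (WBGene00000729; chromosome V, 11449219 to 11450357) had 8.04, 11.2 and 12.2 against 1.66, 1.95 and 3.73, a log2 ratio of -2.10. col-34 (WBGene00000611; chromosome IV, 4243545 to 4244610) had 3.90, 5.44 and 5.92 against 0.465, 0.546 and 1.04, a log2 ratio of -2.89. All of these were lower in alg-2(ok304) by the fitted reads themselves. The order of single libraries follows from the fit and adds no replicate support. col-156 overlaps mig-17 on the other strand, by 31 bp of exon, and mig-17 had 5.59 fitted reads in wild type, against 54 in alg-2(ok304).

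col-38, col-49, col-63 and col-138 are known as collagens of the L4 hypodermis that require LIN-29, and col-19 as a collagen of the adult. col-49 (chromosome I) had 19.9 fitted reads in wild type, against 17.1 in alg-2(ok304), a log2 ratio of -0.22. col-63 and col-138 were listed at 0 in wild type and at 5.80 and 5.17 in alg-2(ok304). The adult collagen gene col-19 (chromosome X) was listed at 0 in all 6 libraries. Of the 4 L4 genes, only col-38 had a direction on every scale. By their fitted reads, col-63 and col-138 were too low in alg-2(ok304) for their 0 in wild type to be informative.

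A level of 0 in wild type carries information only where enough reads would have been due there. At an equal share of the reads outside ribosomal RNA and the genes beside it, a gene needed 18.9 fitted reads in alg-2(ok304) to give the 3 reads in wild type taken here as a floor. Among the 21 col genes listed in alg-2(ok304) only, 10 were past this floor (16.4% of the 61, against 8.11% of all genes above 0). With the scale of the genes with at most 1000 fitted reads, 14 were, and the share over all genes was not computed. In this class, passing the floor depends only on the level in alg-2(ok304). Its median there was 27.4 fitted reads over the 73 listed col genes and 8.37 over all listed genes. The median of the 21 was 17.99 fitted reads, against 8.26 for all 1832 genes of that class.

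col-104 (WBGene00000678; chromosome IV, 1353636 to 1355305) came next after col-14, with 21.8, 25.5 and 48.8 fitted reads in alg-2(ok304). col-98 (chromosome III) had 11.8, 13.8 and 26.4 fitted reads, and col-13 (chromosome V) had 10.2, 12.02 and 22.98. The others past the floor were col-130 with a sum of 45.2 fitted reads, col-149 with 34.8, col-12 and col-39 with 32.4 each, col-73 with 27.4 and col-157 with 25.7. All of these were listed at 0 in every wild-type library, so that no fold is given. The remaining 11 genes had from 0.899 fitted reads (col-140) to 17.99 (col-162). Of those past the floor, col-14, col-130 and col-39 lie in introns of listed genes on the other strand. Their reads are therefore not certain to be those of the col gene, and the count past the floor was not repeated without them.

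In the other direction, col-115 (WBGene00000689; chromosome IV, 7988685 to 7991428) had 10.4, 14.5 and 15.8 fitted reads in wild type and was listed at 0 in alg-2(ok304). col-109 (chromosome IV) summed to 0.984 fitted reads in wild type, near a single read. Since alg-2(ok304) held more reads outside ribosomal RNA, the floor was passed by all 3 genes listed in wild type only, as by all 295 such genes of the table (6.16%). col-153 and col-115, but not col-109, stood well above it. These 3 genes have 4 or 5 exons, as have col-46, col-47, col-110, col-120, col-128 and col-159 of the other classes. Of the 73 listed col genes, 43 have 2 exons, 8 have 1 and 22 have 3 or more.

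Neighbouring col genes were read alike in some groups and not in others. With a limit of 5000 bp between one gene and the next, 26 of the listed col genes fell into 10 groups of neighbours. The highest group was col-167, col-168, col-169 and col-170 (chromosome X, 6323488 to 6335221, all on the plus strand, a span that includes 1 annotated col gene not listed), with 563 fitted reads in wild type, against 2061 in alg-2(ok304), a 3.66-fold difference in fitted reads. Within it, the log2 ratio was 2.002 for col-167, 1.59 for col-168, 1.53 for col-170 and 3.30 for col-169. col-169 had 25.2 fitted reads in wild type, far below the 149 to 218 of the other members, and 248 in alg-2(ok304).

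The group of col-144, col-145 and col-10 (chromosome V, 9159586 to 9165307, minus strand) had 336 fitted reads in wild type, against 1859 in alg-2(ok304). col-144 had 43.6, 60.9 and 66.2 fitted reads in the libraries from wild type, against 208, 244 and 467 in the alg-2(ok304) libraries. col-10, at the other end of the group, had 42.0, 58.6 and 63.7 against 200, 235 and 450. The log2 ratio of both was 2.43, and their levels were alike in each group, whereas col-145 between them summed to 1.08 and 54.4 fitted reads. The sequences of these neighbours were not compared. How reads that match more than 1 gene were divided is not given in the sources used here, so any split between such genes is uncertain.

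**Figure D3:**
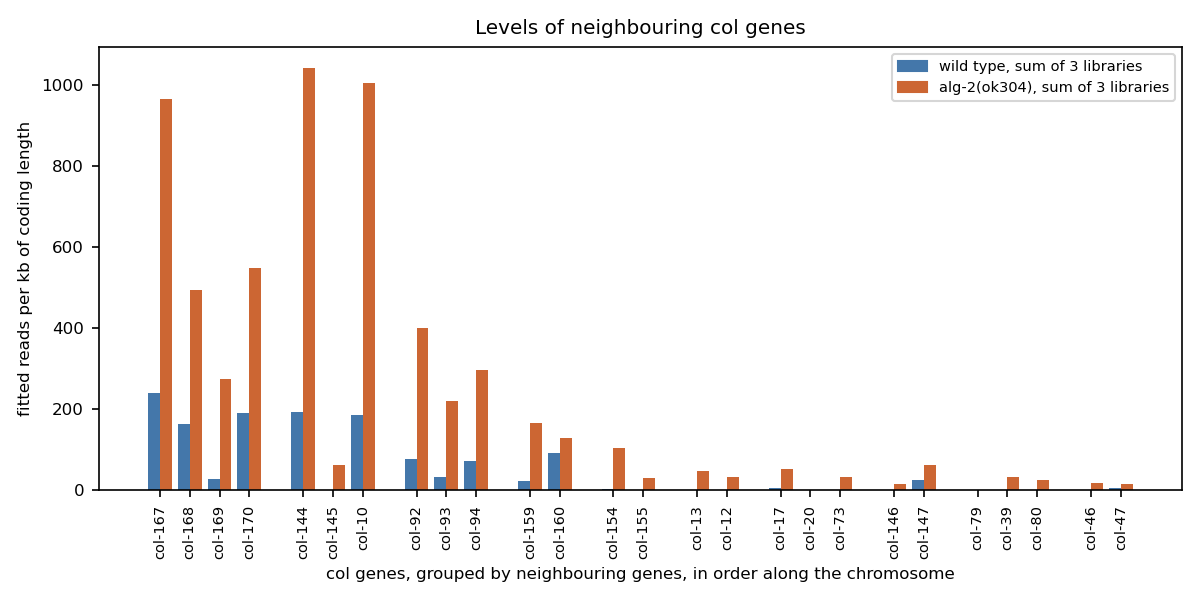
Fitted reads per kb of coding length (vertical axis, sum of 3 libraries) of the 26 listed col genes in 10 groups of neighbours, in their order along the chromosome, for wild type (blue) and alg-2(ok304) (orange). col-145 is low between col-144 and col-10, which reach 1041 and 1004 in alg-2(ok304), and col-169 is the lowest of its group in both.

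On chromosome III, col-92, col-93 and col-94 (10982139 to 10987873, minus strand) had 167 fitted reads in wild type, against 836 in alg-2(ok304), with log2 ratios of 2.39, 2.75 and 2.01. They lie in introns of dhc-4 on the other strand, which had 126 and 603 fitted reads. col-159 and col-160 (chromosome V, 13198231 to 13202189) overlap by 21 bp of exon on 1 strand and differed. col-159 had 21.7 and 156, with a log2 ratio of fitted reads of 2.85, and col-160 had 87.4 and 123, a log2 ratio of 0.50. col-159 was higher in alg-2(ok304) on every scale, and the direction of col-160 depended on the scale.

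col-12 and col-13 (chromosome V, 10420788 to 10425198), a duplicated pair whose proteins are nearly the same, were both listed at 0 in wild type and had 32.4 and 45.2 fitted reads in alg-2(ok304). Their reads cannot be told apart with certainty, but their sum of 77.7 also stood against 0. The group of col-79, col-39 and col-80 (chromosome II) had 0.982 and 58.0 fitted reads, all from col-39 and col-80, since col-79 was at 0. In the group of col-17, col-20 and col-73 (chromosome II), with 4.77 and 72.1 fitted reads, col-20 was at 0 in both groups of worms. The other 3 groups of neighbours summed to 27.7 to 121 fitted reads in alg-2(ok304).

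Across chromosomes, the share of the col genes that was listed ran from 31.8% on chromosome I (7 of 22) to 66.7% on chromosome V (20 of 30). On X, 8 of the 9 listed genes were above 0 in both groups and col-19 was at 0, where 60.7% of all X genes above 0 were above 0 in both. On IV, 7 of the 16 col genes above 0 (43.8%) were listed in alg-2(ok304) only, against 41.4% of all genes there, and 2 (12.5%) in wild type only, against 6.89%. These counts are small and were not tested. Chromosome IV held 10.04% of the col fitted reads in wild type, against 24.6% in alg-2(ok304), with 216 and 2058 fitted reads. col-117 and col-14 had 933 and 398 of the latter. Chromosome X held 40.9% in wild type and 30.2% in the mutant, and chromosome V held 35.7% and 30.2%. These shares are free of the scale between the groups.

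**Figure D4:**
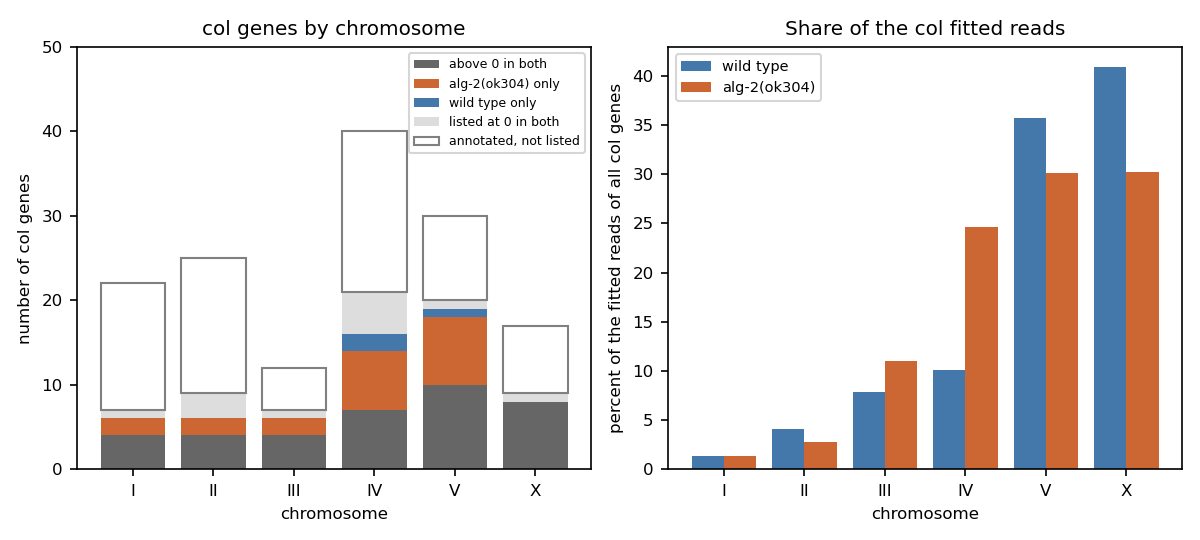
Left, the number of col genes on each chromosome (vertical axis), stacked by class of listing, with an open box for annotated genes that were not listed; right, the percent of all col fitted reads on each chromosome in wild type (blue) and alg-2(ok304) (orange). X has 8 genes above 0 in both groups and none listed in 1 group only, and the share of IV is 10.04% in wild type, against 24.6% in alg-2(ok304).

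The listed col genes were of like size, with a coding length of 702 to 1284 bases and a median of 900, against a median of 1137 over the listed protein-coding genes. The median was 900 in the 37 genes above 0 in both groups, 903 in the 21 listed in alg-2(ok304) only and 897 in the 12 at 0. Genes with 3 or more exons were 7 of the 37, 6 of the 21, 6 of the 12 and 3 of the 3 listed in wild type only. Of the annotated col genes that were not listed, 45 of 73 had 3 or more exons.

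Position within other genes bears on what was counted as a col read. Of the 73 listed col genes, 34 overlap another gene, and 14 lie inside an intron of a listed gene on the other strand. T13H2.7 and T13H2.9, which overlap on opposite strands of chromosome X, had the same values, 63236 fitted reads in wild type, against 396679 in alg-2(ok304), so a read there was counted for both genes. col-14 lies in an intron of C46A5.4, which had 0.972 fitted reads in wild type, against 403 in alg-2(ok304), beside 0 and 398 for col-14. col-130 had 0 and 45.2 and its host ugt-65 had 0 and 46.6. col-107 had 29.9 and 206 and its host C34H4.5 had 31.6 and 216. col-41 had 45.0 and 57.7 and its host ucr-2.2 had 46.03 and 62.3.

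For these pairs the reads of the col gene and of its host cannot be told apart. Not every host was so close: dph-2, which holds col-39, col-79 and col-80, had 18.1 and 87.5 fitted reads, beside 0.982 and 58.0 for the 3 col genes. dhc-4, which holds col-92, col-93 and col-94, had 126 and 603, beside 167 and 836 for the 3 col genes. The 3 col genes thus summed to more than dhc-4 in both groups, unlike the pairs above. How many of their reads were also counted for dhc-4 is not known. col-153, col-117, col-144, col-10 and col-166 lie in no intron of a listed gene. anr-43 overlaps col-153 on the other strand outside its exons and was not among the genes listed.

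Genes for the collagen machinery were read from lists chosen with the col genes, beginning with folding in the endoplasmic reticulum. Of 16 genes for folding and prolyl hydroxylation, 13 were listed, 11 of them above 0 in both groups and 2 in alg-2(ok304) only. The median log2 ratio of fitted reads was 2.65, against 1.93 over all genes above 0 in both groups, with 5 higher in alg-2(ok304) on every scale and 0 lower. Over all genes above 0, 18.8% were higher and 5.64% lower on every scale, for this list and those below. The catalytic hydroxylase subunit gene phy-3 had 11.5 and 98.0 fitted reads and phy-2 had 0 and 8.49, below the floor. The disulfide isomerase genes differed, with 78.4 and 42.9 fitted reads for pdi-2 and 12.2 and 134 for pdi-3. tmem-131, needed for collagen secretion, had 2.11 and 23.1.

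Of 13 genes for cleavage and cross-linking, only 4 were listed, with 0 in either direction on every scale. bli-4, the furin-like protease that trims cuticle collagens, had 0 fitted reads in wild type, against 8.14 in alg-2(ok304), below the floor. mlt-11, a protease inhibitor gene of the moult, had 26.2 and 22.02. Of 14 transcription factor genes of the moult and of stage identity, 5 were listed and 2 were higher on every scale. These were lin-14, a timing gene of early larval stages, with 48.4 and 316 fitted reads, and the period-like gene lin-42, with 2.75 and 49.3. lin-29, on which the L4 collagens depend, had 1.86 and 3.98. Listed in alg-2(ok304) only were sma-9 with 0 and 22.1, past the floor, and nhr-23 with 0 and 0.894, below it.

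Of 26 other collagen genes, 21 were listed, with 7 higher and 3 lower on every scale and a median log2 ratio of 1.36, against 2.43 for the col genes. The 3 lower genes were the body shape collagens sqt-1 with 288 and 54.04 fitted reads, sqt-2 with 17.5 and 4.34, and sqt-3 with 283 and 79.7. The 7 higher genes were rol-1, rol-6, dpy-5, dpy-7 and dpy-8, also body shape collagens, and emb-9 and mec-5. Of these, dpy-5 had 3.73 and 81.6 fitted reads and dpy-7 had 2.86 and 49.5. The difference between the other collagens and the col genes could not be tested. In sum the other collagens had 927 fitted reads in wild type, against 956 in alg-2(ok304), where the col genes had 2149 and 8368. Of the 927, sqt-1 and sqt-3 held the most.

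Markers of 3 tissues were read beside the col genes. Of 15 hypodermis markers, 12 were listed, with wrt-10 at 0 in both groups. Of these, 7 were above 0 in both groups, 3 in alg-2(ok304) only and 1 in wild type only. Their summed fitted reads were 109 to 165 in the wild-type libraries, against 148 to 332 in the alg-2(ok304) libraries, with a median log2 ratio of -0.15 over the 7 above 0 in both groups. The cuticle-associated genes noah-1, with 34.7 and 11.9 fitted reads, and lpr-3, with 41.6 and 9.26, were lower on every scale, as was ptr-4, with 95.0 and 35.4, and none of those above 0 in both groups was higher on every scale. In the other direction by fitted reads, dpy-6 had 0 and 33.9, past the floor, the junction gene ajm-1 had 41.5 and 179, and qua-1 had 201 and 352. let-653 had 0 and 11.6, below the floor, so its 0 in wild type is not informative. The direction of ajm-1 and qua-1 depended on the scale.

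Of 20 neuron markers, 7 were listed, and rgef-1 and unc-119 were not. The summed fitted reads of the 7 were 6.83 to 10.4 in wild type and 51.2 to 115 in alg-2(ok304), with a median log2 ratio of 3.01. On every scale, 3 of them were higher in alg-2(ok304) and 0 lower. All 15 body wall muscle markers were listed, with 1008 to 1529 fitted reads in a wild-type library and 1513 to 3397 in an alg-2(ok304) library, most of them on the giant muscle gene ttn-1. Of the muscle markers, 3 were higher and 2 lower on every scale. Neurons, whose ribosomes carried the tag, had the smallest part of their markers listed and the fewest summed reads of the 3 lists in both groups, without regard to gene length. The part of these tissues in the values of the col genes was not tested.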

How the data were processed

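Polysome-bound RNA of 3 wild-type and 3 alg-2(ok304) samples was sequenced by the authors, who call the replicates biological. Per the submitters' processing notes and the methods, reads were trimmed with cutadapt 2.10, aligned to WBcel235 with HISAT2 2.2.0, assigned to Ensembl 96 genes by featureCounts (Subread 2.0.0) and tested by edgeR 3.11, with a stated filter of 1 CPM in at least 2 libraries. The listed values do not meet it: relative to the column totals, 1704 of the 5739 genes and 41 of the 73 col genes reached 1 CPM in at least 2 columns. The strand setting is not given in the sources used here.

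The deposited table holds, for each gene, a value per library (a fitted value, as the constant ratios show), the authors' mean log2 CPM, and the p-values and false discovery rates of the authors' own comparison. The last were not used. Fitted values allowed no test, so the planned edgeR test was not run, and the depth of the libraries is unknown. The mean log2 CPM is the authors' value and entered no comparison.

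Fitted reads were summed per group with Python 3.11.15, numpy 2.4.6 and pandas 2.3.3. For symbols and positions Ensembl release 115 was used (the same assembly), and 5733 of 5739 identifiers matched. Main levels were relative to the totals outside 6 ribosomal RNA genes and 23 genes overlapping them or within 2000 bp, with a pseudocount of 0.5 for directions that include genes at 0. In simulated counts of 5739 genes with a uniform scale, directions were taken relative to the median ratio. All 200 genes changed by a log2 fold of 3 came out in the right direction. The changed genes had moderate levels, and neither the directions on every scale nor the floor was tested this way.

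The members, lists and tests were chosen with earlier results of these data known. Named with values were the 8 highest genes per kb of coding length in each group, up to 10 of each class listed in 1 group only, up to 8 with the highest ratio in each direction on every scale, and genes known from stage or structure. Of the latter, col-7 and col-99 were not among the genes listed, and col-2 lies outside the range of identifiers, and col-6 matched no symbol. The rule's genes with near-identical proteins were not determined, since protein sequences were not used here. col-48, col-93 and others outside the rule, such as host genes, were named after their values were seen. Other scales, a minimum of 10 fitted reads, other pseudocounts and leaving out genes that overlap another gene were tried.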

Additional observations from a re-analysis of the deposited data

Results flagged for a closer look

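Some of the 12 col genes listed at 0 in all 6 library columns had a higher mean log2 CPM than col genes with reads. This mean, a column that the comparisons did not use, ran from -2.74 to 0.0012 over the 12, the highest being col-79 (chromosome II). Of the 61 col genes above 0, 33 had a mean log2 CPM below that of col-79. In all, 953 listed genes were at 0 in both groups. Among the col genes above 0, col-71 had the highest mean log2 CPM, 3.36, with 70.0 fitted reads in alg-2(ok304). There col-117 had 3.02 and 933. col-63 and col-138 had a mean log2 CPM of 0.66 and 0.48, above the 0.34 of col-104. The mean log2 CPM therefore does not follow from these 6 columns, and the cause was not tested. The levels, orders and floor given above rest on the fitted reads alone.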

How the results depend on the processing

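The choice of scale turned the sign of both summary ratios. The median log2 ratio of the 37 col genes above 0 in both groups was -0.23 relative to the totals outside ribosomal RNA and the genes beside it, and 3.54 by the totals of all genes, 0.71 outside the annotated ribosomal RNA genes only, 0.86 by the genes with at most 1000 fitted reads and 0.50 by the median of all genes. It was -0.25 with at least 10 fitted reads in a group. The log2 ratio of the summed col genes was -0.70, and on the same 4 scales 3.08, 0.24, 0.40 and 0.033; without genes that overlap another gene it was -0.55. The number of col genes higher in alg-2(ok304) was 38, or 22 without overlapping genes, and 30 to 55 in the other settings. The number lower was 23, and 6 by all totals, 14 by the genes with at most 1000 fitted reads and 11 without overlapping genes. Neither number was set against all genes. Genes listed in alg-2(ok304) only and past the floor were 10, or 14, without a share over all genes, by the genes with at most 1000 fitted reads. That scale was chosen after seeing the data.

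The share of the col genes was 0.505% in wild type, 0.225% outside the ribosomal RNA genes only, 0.444% without col-153 and 3.37% within the genes with at most 1000 fitted reads. In alg-2(ok304) it was 0.311%, 0.266%, 0.277% without col-117, and 4.43%. Pseudocounts of 0.1 and 2 left both counts of genes as they were.

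No paired analysis was possible because the library columns are fitted values without variation between replicates. For the same reason leaving out a library, the replicate block and other count tests were not run. The mean log2 CPM gave no scale, and protein identity between col genes was not computed. Without read counts, the counting error of low values such as those of col-145 is unknown.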
